A study of Rattus norvegicus with 6 samples.

Results

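The enzymes that carry glucose carbon to lactate or through the mitochondrial citric acid cycle were examined in neurons cultured from the spinal cord of neonatal Sprague-Dawley rats, in a model of glutamate injury with and without silencing of galectin-3 (GAL3, encoded by LGALS3). Members were picked by gene symbol from the textbook make-up of both pathways, at a time when other results of these data were known, and all 42 were found among the 17648 genes measured by RNA-seq. Of these, 17 belonged to glycolysis with its lactate dehydrogenases, and 25 to the pyruvate dehydrogenase complex, the TCA cycle and the anaplerotic enzymes GLUD1 and PC, which feed carbon into the cycle. The Glu + siR-Con group held 3 libraries of neurons transfected with a control siRNA, and the Glu + siR-GAL3 group held 3 libraries of neurons transfected with an siRNA against GAL3. The comparison asked how knock-down of GAL3 altered transcript levels under glutamate stimulation. The culture was 3 days old when it was exposed for 1 h to 10 μM glutamate, and a glutamate-free period of 16 h followed. The paper and the design text state this exposure for both groups, whereas the sample labels give saline for the siR-Con libraries and speak of a GAL3 knockout. Ara-C, which kills dividing cells, was added to raise the share of neurons. The paper says of its data in general that experiments were repeated independently, but no label ties these libraries to separate cultures, so the p-values measure the spread between the libraries, which may be technical.

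Glycolysis splits glucose in the cytosol. Hexokinases trap the sugar, phosphofructokinases commit it to breakdown, the later steps repay ATP and NADH, and lactate dehydrogenases interconvert pyruvate and lactate. The pyruvate dehydrogenase complex turns pyruvate into acetyl-CoA for the TCA cycle, whose dehydrogenases supply the respiratory chain. In nervous tissue astrocytes are known as glycolytic cells that can export lactate, neurons as largely oxidative cells, and PC, GLUD1 and ALDOC as enzymes rich in astrocytes. GLUD1 converts glutamate to oxoglutarate and thus joins glutamate handling to the cycle.

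All values below are the deposited expression values, which were derived from FPKM and are therefore per length, and values by library are given in the order replicate 1, 2 and 3. Sequencing depth is unknown, and each SD (n = 3) is what the authors' correction within groups left of the spread. The p-values and the comparisons of group ranges below rest on the same corrected values. Exactly equal values split the libraries into a set of siR-Con replicate 1 with siR-GAL3 replicate 1, a set of siR-Con replicates 2 and 3 with siR-GAL3 replicate 3, and siR-GAL3 replicate 2 on its own. This last library stood apart from the rest. It scored 27.9 on a first principal component that held 65.2% of the variance, against -8.52 to -1.94 for the other 5 libraries, and it was the lowest of the 6 libraries in 35.1% of the 8495 genes tested and the highest in 41.5%. Results are therefore given with and without it. LGALS3, the target, was 77.4, 54.4 and 62.4 in siR-Con and -1.64, 32.3 and 18.5 in siR-GAL3, so all siR-GAL3 libraries lay below all siR-Con libraries and replicate 2 kept the most transcript. Its log2 fold change was -2.91 ± 1.20 (SE), and it did not pass the test across all genes (limma adjusted p = 0.571). FPKM cannot be below 0, so the negative value is a product of the authors' processing.

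Defining markers of the labelled cell type were low beside those of glia. RBFOX3 (NeuN) averaged 0.383 and NEFL 0.343, and the 8 neuronal markers listed, led by MAP2 at 16.9, summed to 24.5 to 28.8 in siR-Con and 22.8 to 27.9 in siR-GAL3. In contrast, GFAP of astrocytes averaged 589.6 and MBP of oligodendrocytes 713. Of the 4 neuronal markers tested, 2 were higher in siR-GAL3 and 2 lower. STMN2 and SYT1 were higher without overlap, at log2 fold changes of 0.33 and 0.18. MAP2 and TUBB3 were lower with overlapping groups, at -0.09 and -0.12. NEFM, which was not tested, was lower without overlap. The 7 astrocyte markers summed to 865 to 1008 in siR-Con and to 747 to 809 in siR-GAL3, without overlap, and 5 of the 7 were lower in siR-GAL3. Without GFAP these sums overlapped, at 251 to 294 and 233 to 286. The 4 fibroblast markers listed also summed lower in siR-GAL3, at 32.0 to 36.8 against 41.6 to 48.7. COL1A1, COL3A1 and LUM had a lower mean there, LUM with overlapping groups, and DCN had a higher one. All 7 microglial markers tested had a higher mean in siR-GAL3, with sums of 80.4 to 98.3 against 66.0 to 81.5. Oligodendrocyte lineage markers summed to 861 to 919 in siR-Con and 854 to 1149 in siR-GAL3. In such bulk samples fewer cells of a type and less RNA per cell cannot be told apart.

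As a group, the enzymes lay slightly lower in siR-GAL3 and none passed the test across all genes. Of the 40 members tested, 31 were lower and 9 higher in siR-GAL3, where 50.0% of all genes tested were lower. In the limma fit no member and no other gene reached an adjusted p under 0.05 (0.0% of 8495 genes, smallest adjusted p 0.0695), while 8 members had an unadjusted p under 0.05 and a lower level, 0 had a higher level, and 8.66% of all genes had such a p in either direction (4.25% lower, 4.41% higher). When an absolute log2 fold change over 1 was also required, as the paper did for its spinal cord injury datasets, 0.318% of all genes passed and none of the members did. For these neuron groups the paper reports both up-regulated and down-regulated genes, from a fit that was not repeated here. All 3 siR-GAL3 libraries lay below all 3 siR-Con libraries for 13 members and above them for 1, SDHB, against 10.3% of all genes in each direction. With 3 libraries against 3, the exact two-sided permutation test of such a member gives p = 0.1, the smallest it can give. Without siR-GAL3 replicate 2, 4 members had an adjusted p under 0.05 in limma (PFKM, SUCLG2, PC and GLUD1), where 1.97% of all genes did. When the library sets entered the fit as a block, which leaves that library no weight, PFKM, SUCLG2 and PC passed, and 1.25% of all genes did.

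**Figure D1:**
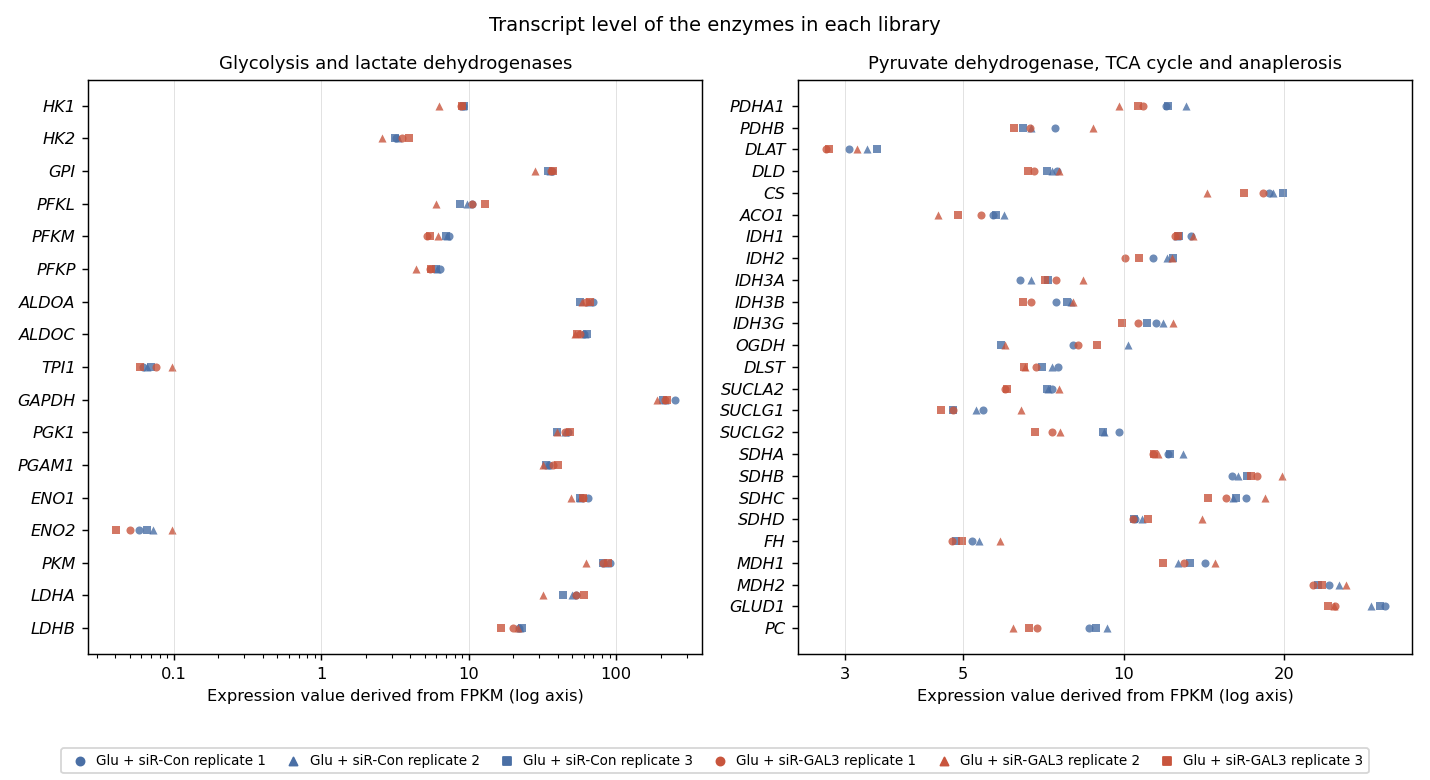
Expression value (log axis) of each enzyme in the 6 libraries, with glycolysis on the left and the TCA cycle on the right; colours mark the groups and symbols the replicates. PC, SUCLG2, PFKM and GLUD1 have all red symbols below all blue ones, siR-GAL3 replicate 2 (red triangles) lies at the low end for most glycolytic enzymes, and TPI1 and ENO2 lie below 0.1 in every library.

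Glycolytic transcripts were abundant and mostly somewhat lower in siR-GAL3. Of the 15 members tested, 12 were lower and 3 higher (HK2, PGK1 and PGAM1), with a median log2 fold change of -0.09 (quartiles -0.18 and -0.03) beside a median of -1.19e-05 over all genes. PFKM, PFKP and ALDOC had an unadjusted p under 0.05, all with a lower level. This picture rested largely on siR-GAL3 replicate 2. Without that library the median was 0.00, 7 of the 15 members were lower, and 4 members lower (PFKM, PFKP, ALDOC and LDHB) and 3 higher (HK2, PFKL and PGAM1) had an unadjusted p under 0.05, beside 16.3% of all genes. The median was -0.03 without siR-Con replicate 1, -0.14 without siR-Con replicate 3, -0.14 without siR-GAL3 replicate 1 and -0.15 without siR-GAL3 replicate 3. PFKM alone, 1 member, had an unadjusted p under 0.05 when any single siR-Con library was left out. Of all 8495 genes, 517, 350 and 344 then had such a p without siR-Con replicate 1, 2 and 3.

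Hexokinases open the pathway. HK1, the form typical of brain, was 9.16, 9.11 and 9.24 in siR-Con and 8.86, 6.26 and 8.94 in siR-GAL3. HK2, the inducible form, was 3.19, 3.33 and 3.13 in siR-Con and 3.50, 2.59 and 3.94 in siR-GAL3. The groups did not overlap for HK1, but most of its difference came from siR-GAL3 replicate 2, and the log2 fold change went from -0.19 ± 0.13 (SE) to -0.04 without that library. HK2 lay above every siR-Con library in siR-GAL3 replicates 1 and 3 and below them in replicate 2. As a share of HK1 plus HK2, HK2 was 25.8%, 26.8% and 25.3% in siR-Con and 28.3%, 29.3% and 30.6% in siR-GAL3. The share was thus higher in all 3 siR-GAL3 libraries, replicate 2 included, although neither hexokinase passed the test.

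The phosphofructokinases, which catalyse the committed step, differed among themselves in level and in spread. PFKM was 7.35, 7.10 and 6.98 in siR-Con and 5.18, 6.20 and 5.41 in siR-GAL3. All siR-GAL3 libraries were lower, with means of 7.14 ± 0.191 and 5.60 ± 0.537 (SD), and replicate 2 was here the closest to siR-Con. The log2 fold change of PFKM was -0.31 ± 0.08 (SE, limma adjusted p = 0.324). It was -0.37 without siR-GAL3 replicate 2, with a limma adjusted p of 0.0183, where the alternatives ranged from 0.0183 to 0.874. PFKP was 6.36, 6.12 and 5.97 in siR-Con and 5.44, 4.34 and 5.56 in siR-GAL3. Its groups did not overlap either, at a log2 fold change of -0.23 ± 0.09 that shrank to -0.14 without replicate 2. PFKL, the liver-type form, was 10.5, 9.71 and 8.76 in siR-Con and 10.5, 5.96 and 12.8 in siR-GAL3, so that siR-GAL3 held both its highest and its lowest library. PFKL made up 40.3 to 43.3% of the 3 PFK transcripts in siR-Con, 49.7% and 53.9% in siR-GAL3 replicates 1 and 3, and 36.1% in replicate 2. PFKM ran the other way, from 30.4 to 32.2% in siR-Con to 24.6%, 37.6% and 22.7% in siR-GAL3.

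The windows of 250 bases before the RefSeq starts (rat assembly GRCr8) of 3 glycolytic genes are shown because PFKM was the glycolytic gene with the smallest p, and PFKL and LDHA were those on which siR-GAL3 replicate 2 differed most. The core of the hypoxia response element, at which hypoxia-inducible factors can bind, was searched as ACGTG and GCGTG on both strands. Capitals mark a match on either strand, and the sequences are given in the direction of transcription. They lie at chr1:106507842-106508091 (plus strand, LDHA), chr20:10663715-10663964 (plus strand, PFKL) and chr7:131113849-131114098 (plus strand, PFKM).
LDHA: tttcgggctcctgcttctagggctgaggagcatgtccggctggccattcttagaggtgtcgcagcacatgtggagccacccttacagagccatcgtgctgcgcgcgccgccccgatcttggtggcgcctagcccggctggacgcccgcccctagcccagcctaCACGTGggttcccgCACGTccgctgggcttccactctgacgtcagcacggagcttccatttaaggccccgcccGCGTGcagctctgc
PFKL: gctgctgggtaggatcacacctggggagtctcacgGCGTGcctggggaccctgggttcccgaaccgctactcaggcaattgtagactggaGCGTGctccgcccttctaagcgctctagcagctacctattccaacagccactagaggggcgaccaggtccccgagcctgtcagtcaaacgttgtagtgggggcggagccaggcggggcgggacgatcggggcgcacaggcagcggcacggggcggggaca
PFKM: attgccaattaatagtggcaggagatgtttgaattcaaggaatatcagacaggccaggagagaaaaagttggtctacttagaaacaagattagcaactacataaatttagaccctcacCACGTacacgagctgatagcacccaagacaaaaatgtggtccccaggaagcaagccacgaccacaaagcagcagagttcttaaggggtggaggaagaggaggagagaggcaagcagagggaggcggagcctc
LDHA held 3 matches to ACGTG, of which 2 overlap on opposite strands in a palindrome, and 1 to GCGTG, PFKL held 2 to GCGTG and PFKM 1 to ACGTG. At least 1 match lay in 12 of the 16 glycolytic genes with a window in the table (75.0%), in 11 of 23 TCA cycle genes (47.8%), in 60.1% of 6845 genes with a tested row and in 39.6% of all 27457 genes of the table. PGK1, IDH3A and PC had no window in the table. A match says only that these letters are present.

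Aldolases split the sugar. ALDOC, the brain form, was 60.2, 61.7 and 62.8 in siR-Con and 56.9, 52.8 and 54.0 in siR-GAL3. The groups did not overlap, with means of 61.6 ± 1.34 and 54.5 ± 2.11 and a log2 fold change of -0.17 ± 0.07 (limma adjusted p = 0.535). ALDOA, the most widely expressed form, was 69.5, 65.1 and 56.8 in siR-Con and 62.6, 58.9 and 66.8 in siR-GAL3, and its groups overlapped. ALDOC made up 46.4 to 52.5% of both aldolases in siR-Con and 44.7 to 47.6% in siR-GAL3, ranges that overlapped.

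GAPDH, which makes the NADH of glycolysis and is a common reference gene of qPCR, was the most abundant member. It was 249, 215 and 206 in siR-Con and 215, 190.2 and 222 in siR-GAL3. Its groups overlapped, at a log2 fold change of -0.09 ± 0.10 that was -0.02 without siR-GAL3 replicate 2. PKM, the pyruvate kinase, was 90.2, 83.6 and 81.2 in siR-Con and 80.8, 62.8 and 87.6 in siR-GAL3. ENO1, the general enolase, was 64.2, 56.7 and 57.0 in siR-Con and 59.1, 49.0 and 59.4 in siR-GAL3. For both, replicate 2 was the lowest library and the other 2 siR-GAL3 libraries lay within or near the siR-Con range. The remaining tested members of the pathway, GPI (phosphoglucose isomerase), PGK1 (phosphoglycerate kinase) and PGAM1 (phosphoglycerate mutase), averaged between 34.6 and 44.1, with log2 fold changes of -0.08, 0.01 and 0.08 and overlapping groups. Replicate 2 was the lowest library for all 3.

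LDHA and LDHB encode the muscle-type and heart-type subunits of lactate dehydrogenase. LDHA was 53.6, 49.9 and 43.4 in siR-Con and 53.1, 31.7 and 60.6 in siR-GAL3. LDHB was 22.0, 22.1 and 22.8 in siR-Con and 19.9, 21.4 and 16.4 in siR-GAL3. LDHA overlapped between the groups and siR-GAL3 held both extremes, while LDHB was lower in every siR-GAL3 library, at a log2 fold change of -0.21 ± 0.10 (limma adjusted p = 0.585). Without replicate 2 the log2 fold changes were 0.21 for LDHA and -0.29 for LDHB, with limma adjusted p-values of 0.325 and 0.123. The alternatives for LDHB ranged from 0.123 to 0.874. LDHB made up 29.1 to 34.5% of both transcripts in siR-Con, 27.2% and 21.4% in siR-GAL3 replicates 1 and 3, and 40.3% in replicate 2.

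TPI1 and ENO2 were near 0 in every library and were not tested. TPI1, the triose phosphate isomerase that every glycolytic cell needs, lay between 0.0583 and 0.0965. ENO2, known as neuron-specific enolase, lay between 0.0404 and 0.0966. In the gene order of GRCr8 they stand close together, and the genes from GRCC10 to TPI1 around them (GRCC10, ATN1, ENO2, LRRC23, SPSB2 and TPI1) all averaged at or below 0.147, between PTPN6 at 3.38 and USP5 at 6.77. The cause was not tested. The ENO2 share of enolase transcripts, 0.0681 to 0.197%, therefore says little about neuronal enolase.

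Most TCA cycle transcripts were somewhat lower in siR-GAL3. Of 25 members, all tested, 19 were lower and 6 higher, with a median log2 fold change of -0.06 (quartiles -0.14 and -0.00). The groups overlapped for 16 members, while 8 were lower and 1 higher without overlap, beside 10.3% of all genes in each direction. From succinate to oxaloacetate, 4 members were lower and 3 higher, at a median of -0.01. PC, SUCLG2, GLUD1, PDHA1 and ACO1 had an unadjusted p under 0.05, all with a lower level. Without siR-GAL3 replicate 2 the pattern was stronger, with 21 members lower, a median of -0.12 and 11 members with an unadjusted p under 0.05, all lower, where 9.36% of all genes were. Without siR-Con replicate 2, 3 members had an unadjusted p under 0.05, beside 350 of all 8495 genes. Within both library sets that held both groups, 18 of the 25 members were lower and 1 was higher, beside 23.0% and 20.7% of all genes. The same counts for glycolysis were 5 lower and 3 higher of 15.

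**Figure D2:**
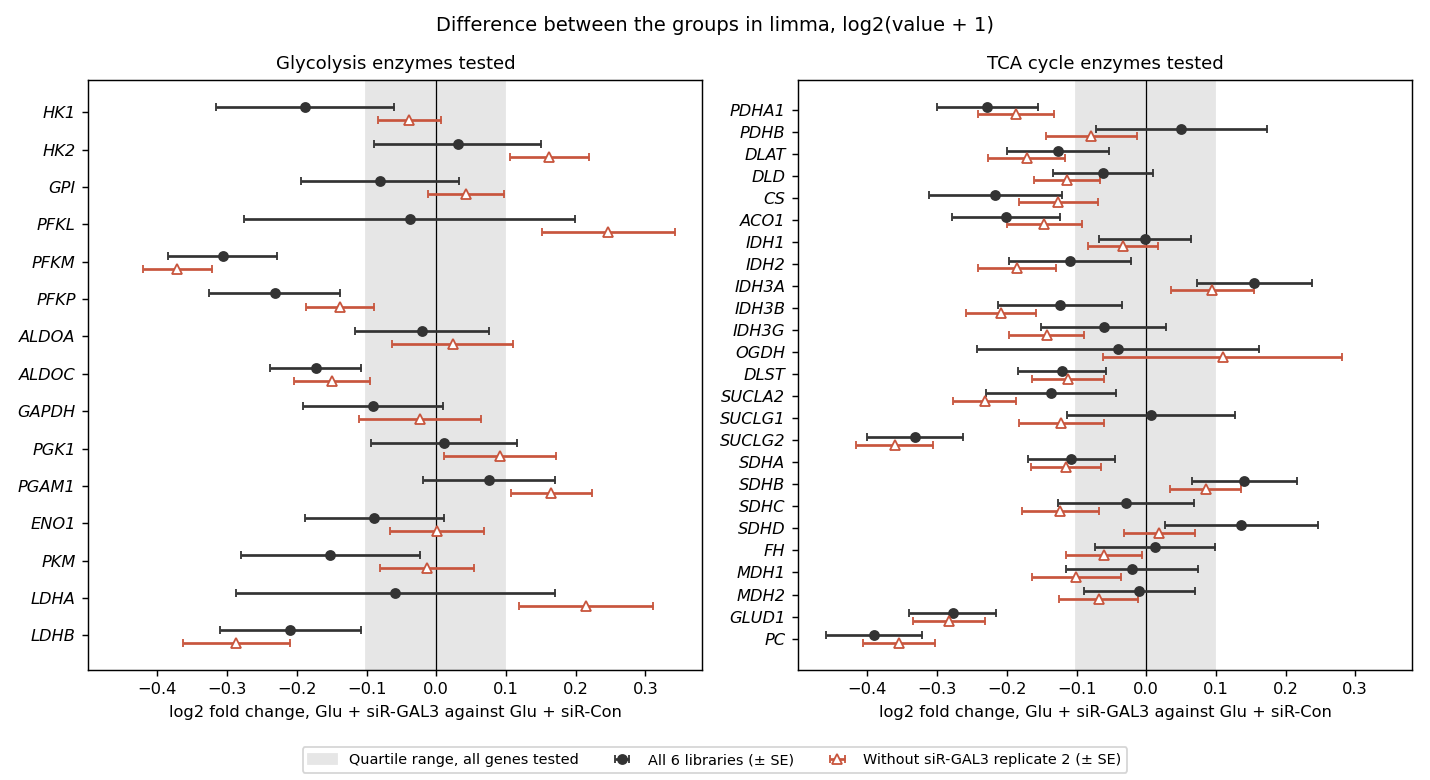
log2 fold change (± SE) of each tested enzyme, siR-GAL3 against siR-Con, from limma with all 6 libraries (black) and without siR-GAL3 replicate 2 (red); the grey band holds the quartile range of all 8495 genes. Glycolytic members scatter to both sides of 0 once replicate 2 is left out, whereas 21 of 25 TCA cycle members then lie below 0, with PC, SUCLG2 and GLUD1 low in both fits.

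Both anaplerotic enzymes were lower in siR-GAL3 without overlap. PC, which makes oxaloacetate from pyruvate, was 8.62, 9.30 and 8.87 in siR-Con and 6.89, 6.21 and 6.63 in siR-GAL3. GLUD1, the most abundant transcript of the arm, was 30.8, 29.1 and 30.3 in siR-Con and 24.9, 24.8 and 24.1 in siR-GAL3. The spread that the authors' correction left within either group was small beside the difference between the groups. For PC the means were 8.93 ± 0.344 and 6.58 ± 0.346 and the log2 fold change -0.39 ± 0.07 (limma adjusted p = 0.149), and for GLUD1 the means were 30.0 ± 0.883 and 24.6 ± 0.435 and the log2 fold change -0.28 ± 0.06 (limma adjusted p = 0.262). Without siR-GAL3 replicate 2 the limma adjusted p was 0.0236 for PC and 0.0417 for GLUD1. Over the alternatives it ranged from 0.0236 to 0.756 for PC and from 0.0417 to 0.874 for GLUD1. Of the 7 astrocyte markers given above, 5 were lower in siR-GAL3 and 2 higher, and without GFAP their sums overlapped. GFAP, SLC1A2 and ALDH1L1 had an unadjusted p under 0.05 in limma, at log2 fold changes of -0.31, -0.45 and -0.26. These were 3 of the 7 markers, all lower, beside 4.25% of all genes, and none had an adjusted p under 0.05. SLC1A2 overlapped between the groups. The part of the astrocyte markers in the differences of PC and GLUD1 was not tested.

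**Figure D3:**
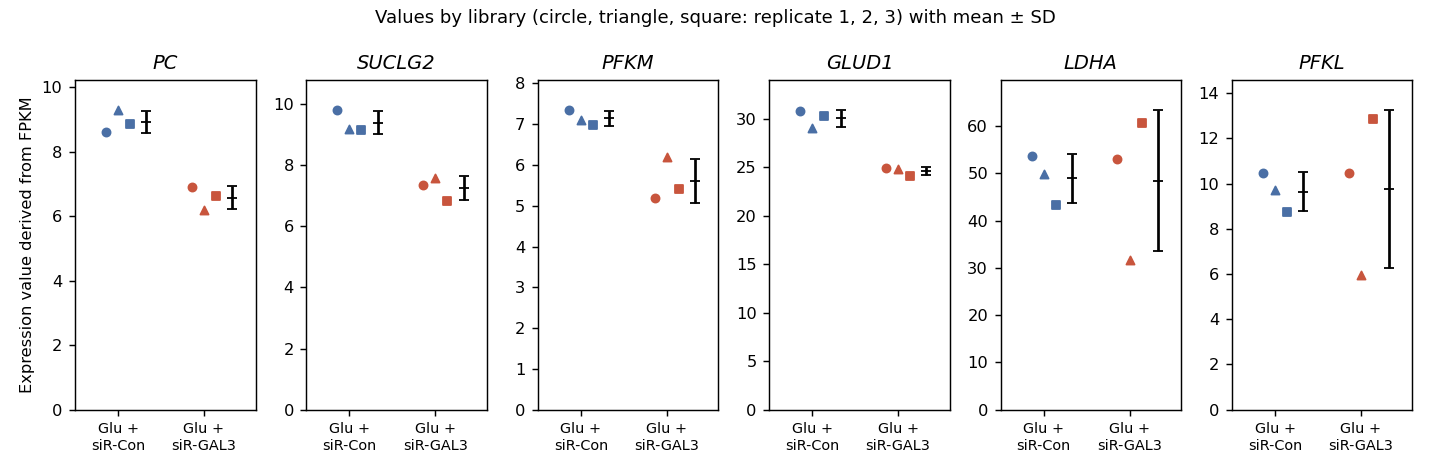
Expression values of 6 enzymes by library (circle, triangle and square for replicates 1, 2 and 3), with mean ± SD beside each group. PC, SUCLG2, PFKM and GLUD1 are lower in all 3 siR-GAL3 libraries, whereas for LDHA and PFKL siR-GAL3 replicate 2 lies below and replicate 3 above every siR-Con library.

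The pyruvate dehydrogenase complex was lower in its catalytic alpha subunit. PDHA1 was 11.98, 13.1 and 12.1 in siR-Con and 10.9, 9.80 and 10.6 in siR-GAL3. The groups did not overlap, at a log2 fold change of -0.23 ± 0.07 (limma adjusted p = 0.46). DLAT, the acetyltransferase core, was 3.05, 3.30 and 3.45 in siR-Con and 2.77, 3.16 and 2.81 in siR-GAL3, and it was the least abundant TCA cycle member. PDHB, the beta subunit, and DLD, the dihydrolipoamide dehydrogenase shared with other complexes, averaged 7.05 and 7.16 with overlapping groups. For PDHB, siR-GAL3 replicate 2 reached 8.75 against 6.23 to 7.44 in the other 5 libraries, and the sign of its log2 fold change turned from 0.05 to -0.08 without that library. All 4 genes of the complex were lower in siR-GAL3 within both library sets, beside 23.0% of all genes. That count leaves out siR-GAL3 replicate 2, which was the highest library for PDHB and DLD.

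From citrate to oxoglutarate, CS and ACO1 separated the groups. CS, which condenses acetyl-CoA with oxaloacetate, was 18.7, 19.0 and 19.9 in siR-Con and 18.2, 14.3 and 16.8 in siR-GAL3. ACO1, the cytosolic aconitase that also acts as an iron-regulatory protein, was 5.67, 5.95 and 5.76 in siR-Con and 5.40, 4.48 and 4.89 in siR-GAL3. Both were lower in every siR-GAL3 library and lowest in replicate 2, at log2 fold changes of -0.22 ± 0.10 and -0.20 ± 0.08 that became -0.13 and -0.15 without it. IDH1, the cytosolic NADP-dependent isocitrate dehydrogenase, was 13.4, 12.6 and 12.7 in siR-Con and 12.5, 13.5 and 12.7 in siR-GAL3. IDH2, its mitochondrial counterpart, was 11.3, 12.05 and 12.4 in siR-Con and 10.1, 12.3 and 10.7 in siR-GAL3. Neither separated the groups, and IDH1 made up 50.6 to 55.4% of both across all libraries. The 3 subunits of the NAD-dependent enzyme had log2 fold changes of 0.15 (IDH3A), -0.12 (IDH3B) and -0.06 (IDH3G), all with overlapping groups and none with an unadjusted p under 0.05.

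From oxoglutarate to succinate, succinyl-CoA ligase stood out. SUCLG2, its GTP-forming beta subunit, was 9.80, 9.19 and 9.14 in siR-Con and 7.34, 7.58 and 6.82 in siR-GAL3. All siR-GAL3 libraries were lower, with means of 9.38 ± 0.369 and 7.25 ± 0.386 and a log2 fold change of -0.33 ± 0.07 (limma adjusted p = 0.215). Without siR-GAL3 replicate 2 the limma adjusted p was 0.0242, and the alternatives ranged from 0.0242 to 0.861. SUCLA2, the ATP-forming beta subunit, was 7.34, 7.21 and 7.18 in siR-Con and 5.99, 7.55 and 6.04 in siR-GAL3. Here replicates 1 and 3 of siR-GAL3 were low and replicate 2 was the highest of the 6 libraries. SUCLG2 made up 57.2%, 56.0% and 56.0% of the beta subunits in siR-Con and 55.0%, 50.1% and 53.0% in siR-GAL3, without overlap. DLST, the succinyltransferase core of the oxoglutarate dehydrogenase complex, was 7.52, 7.35 and 7.01 in siR-Con and 6.85, 6.53 and 6.49 in siR-GAL3. It was lower in every siR-GAL3 library, at a log2 fold change of -0.12 ± 0.06 (limma adjusted p = 0.587). OGDH, the first subunit of the same complex, varied between 5.88 and 10.2 within siR-Con alone, and SUCLG1, the shared alpha subunit of the ligase, averaged 5.21 with overlapping groups.

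The same window before the start is shown for GLUD1 and SUCLG2, which with PC had the most negative log2 fold changes of the TCA cycle members. They lie at chr16:9646319-9646568 (plus strand, GLUD1) and chr4:129893938-129894187 (minus strand, SUCLG2).
GLUD1: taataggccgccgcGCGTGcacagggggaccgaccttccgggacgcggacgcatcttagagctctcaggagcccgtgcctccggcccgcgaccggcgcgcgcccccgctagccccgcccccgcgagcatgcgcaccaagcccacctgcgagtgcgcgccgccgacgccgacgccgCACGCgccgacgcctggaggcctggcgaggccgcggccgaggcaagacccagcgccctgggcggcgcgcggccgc
SUCLG2: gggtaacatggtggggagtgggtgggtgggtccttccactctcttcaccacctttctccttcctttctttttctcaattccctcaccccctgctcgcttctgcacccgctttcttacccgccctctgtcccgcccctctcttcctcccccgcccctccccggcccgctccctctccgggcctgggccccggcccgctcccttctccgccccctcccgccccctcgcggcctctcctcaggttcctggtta
GLUD1 held 2 matches to GCGTG and SUCLG2 none to either core. Whether these letters bear on the transcript levels was not tested.

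Succinate dehydrogenase, which is also complex II of the respiratory chain, has 4 subunits. SDHA, the flavoprotein, was 12.1, 12.9 and 12.2 in siR-Con and 11.4, 11.6 and 11.4 in siR-GAL3. SDHB, the iron-sulphur subunit, was 16.0, 16.4 and 17.0 in siR-Con and 17.8, 19.8 and 17.3 in siR-GAL3. SDHA was thus lower and SDHB higher in every siR-GAL3 library, at log2 fold changes of -0.11 ± 0.06 (limma adjusted p = 0.59) and 0.14 ± 0.08 (limma adjusted p = 0.589). SDHC and SDHD, the membrane anchors, averaged 16.3 and 11.2 with overlapping groups, and replicate 2 of siR-GAL3 was the highest library for both. FH, the fumarase, was 5.19, 5.36 and 4.84 in siR-Con and 4.77, 5.85 and 4.97 in siR-GAL3. MDH2, the mitochondrial malate dehydrogenase, was 24.2, 25.3 and 23.1 in siR-Con and 22.6, 26.1 and 23.5 in siR-GAL3. The groups overlapped for both, and also for the cytosolic MDH1, whose mean was 13.3. With the cytosolic enzymes ACO1, IDH1 and MDH1 left out, 16 of 22 members were lower and the median was -0.08.

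siR-GAL3 replicate 2 lay low for glycolysis and often high for the TCA cycle. It was the lowest of the 6 libraries for 12 of the 15 glycolytic members tested and the highest for 0, against 35.1% and 41.5% of all genes, and for the TCA cycle it was the lowest for 4 of 25 and the highest for 14. On the log2(value + 1) scale its median difference from the mean of the other 5 libraries was -0.27 for glycolysis, 0.12 for the TCA cycle and 0.03 for all genes tested (quartiles -0.20 and 0.24). Its LDHA was 60.9% and its PFKL 57.0% of the mean of the other libraries, while its SDHD was 131% and its SUCLG1 129% of it. The summed glycolytic level was 764, 704 and 672 in siR-Con and 699, 592 and 730 in siR-GAL3. The summed TCA cycle level was 281, 284 and 276 in siR-Con and 258, 278 and 253 in siR-GAL3. Replicate 2 thus had the lowest glycolytic sum of all libraries and a TCA cycle sum within the siR-Con range. The TCA cycle sum was 47.0% of the glycolytic sum in that library and 34.6 to 41.1% in the other 5.

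**Figure D4:**
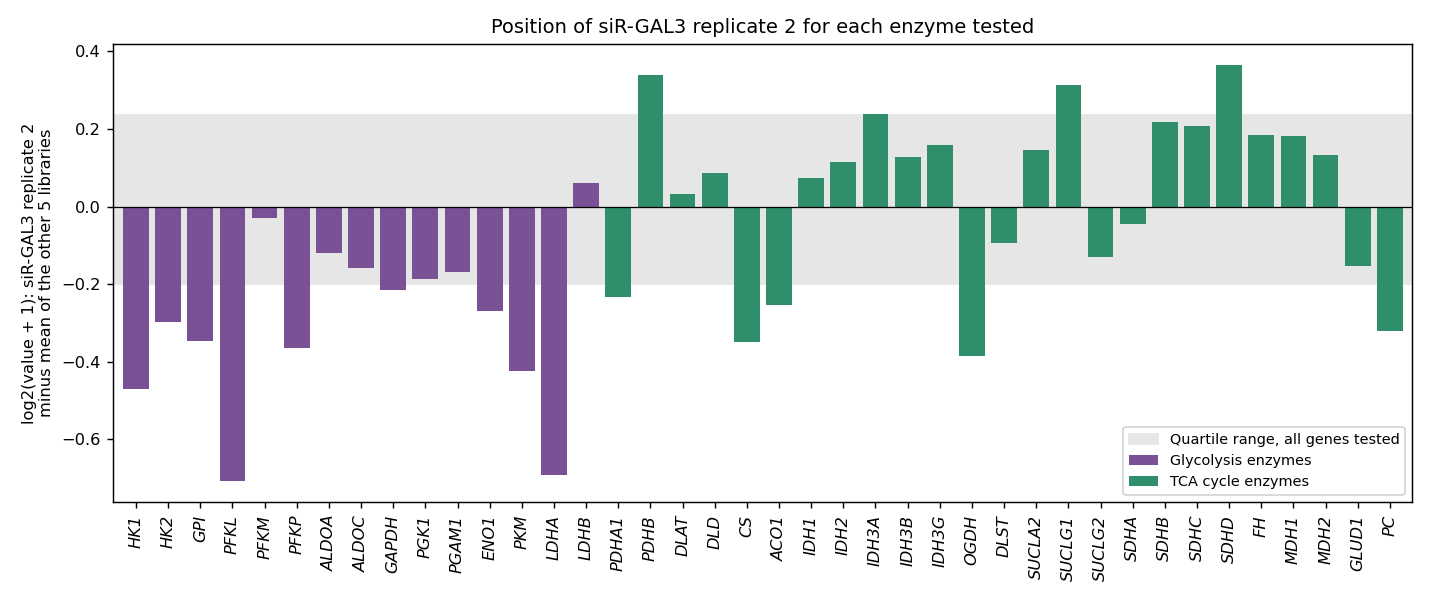
Difference of siR-GAL3 replicate 2 from the mean of the other 5 libraries, on the log2(value + 1) scale, for each tested enzyme; the grey band is the quartile range of all genes tested. All glycolytic members but LDHB lie below 0, with PFKL and LDHA the lowest. Of the TCA cycle members 16 of 25 lie above 0, beside 4606 of all 8495 genes tested.

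The wider pathway was read from a list of 56 further genes, of which 53 were listed and 36 tested. Of these, 23 were lower and 13 higher in siR-GAL3, and 6 lower and 1 higher had an unadjusted p under 0.05, beside 4.25% and 4.41% of all genes. None had an adjusted p under 0.05. The lower genes included ME1, the cytosolic malic enzyme (18.7 ± 0.977 and 15.8 ± 0.952, log2 fold change -0.23), GPD1 and GPD2 of the glycerol phosphate shuttle (-0.20 and -0.17), PFKFB2, which makes the activator of phosphofructokinase (-0.32), and PGAM2, the muscle form of the mutase (-0.48). MPC2, a subunit of the mitochondrial pyruvate carrier, was 8.46, 9.07 and 9.22 in siR-Con and 9.84, 11.4 and 10.0 in siR-GAL3, higher in every siR-GAL3 library (log2 fold change 0.20). Without siR-GAL3 replicate 2, 1 gene of this list had an adjusted p under 0.05 (BPGM, the bisphosphoglycerate mutase, lower).

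Over the 36 further genes tested, siR-GAL3 replicate 2 was the lowest library for 14 and the highest for 11, beside 35.1% and 41.5% of all genes. Values of 4 genes, chosen after they were seen, are given here. SLC2A1, the glucose transporter GLUT1, was 9.68, 9.94 and 10.0 in siR-Con and 10.8, 4.75 and 12.3 in siR-GAL3. PFKFB3, which makes the same activator as PFKFB2, was 26.8, 28.0 and 27.6 in siR-Con and 27.6, 15.8 and 27.2 in siR-GAL3. PDK1, a kinase that switches off pyruvate dehydrogenase, was 3.16, 3.22 and 3.00 in siR-Con and 2.94, 2.08 and 3.39 in siR-GAL3. For SLC2A1, PFKFB3 and PDK1 replicate 2 was below the other 5 libraries, at 45.0%, 57.7% and 66.2% of their mean. HIF1A, the hypoxia-inducible factor subunit, was 8.11, 8.35 and 8.17 in siR-Con and 8.94, 7.67 and 8.55 in siR-GAL3, and replicate 2 was again the lowest.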

How the data were processed

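RNA of 6 libraries, 3 Glu + siR-Con and 3 Glu + siR-GAL3, was sequenced. According to the paper and its supplement, the authors aligned reads with STAR, counted them with HTSeq v0.5.4 and estimated FPKM. Removal of batch effects, standardization and a correction of differences within groups followed, with tools not given in the sources used here. The genome build is likewise not given. The labels name ribosomal RNA depletion and the supplement poly-A selection. The deposited values were other than FPKM proper: linear, derived from FPKM by the authors, with 3.86% below 0, none of them in a member, and column totals of 64313 to 64714. The planned unit was FPKM.

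Values below 0 were set to 0 (24 genes tested), and limma 3.58.1 (R 4.3.3) was run with an intensity trend on log2(value + 1) for the 8495 genes whose mean over the libraries reached 1. p-values are Benjamini-Hochberg adjusted over all of them, and fold changes on this scale understate those of low genes. Libraries were grouped by label. DESeq, which the supplement names for sequenced libraries with an adjusted p threshold, works on counts and was not run. On simulated data for this comparison, 195 of 200 genes changed by 1.5 (log2) were recovered among 8495. That change is larger than any among the members, whose log2 fold changes ran from -0.39 to 0.15. The noise was drawn independently for each gene and library, without the shared deviation of siR-GAL3 replicate 2. The simulation therefore does not measure how well changes of the size seen here would be found. Replicate numbers did not pair the libraries. Members and lists were chosen with earlier results of these data known, so their counts stand beside those of all genes and no list was tested. Values by library were printed for members with an unadjusted p under 0.05 or without overlap, the 3 highest and 2 lowest means of each arm and isoenzyme pairs, and of the further pathway genes those with an unadjusted p under 0.05 were named, except 1 that is not reported here. GRCr8, in which all 42 members matched a symbol, gave only gene order and promoter windows (39 members). Alternatives were no trend, quantile and median-ratio scaling, log2(value + 0.1), every gene or only those whose mean reached 10, the replicate number or library set as a block, values not log-transformed, and each library left out in turn.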

Additional observations from a re-analysis of the deposited data

How the results depend on the processing

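Of the 40 members tested, 22 kept the sign of their log2 fold change under every alternative, PC, SUCLG2, PFKM and GLUD1 among them, 17 changed it at least once, and 1, GAPDH, was at 0 under quantile normalization. The most reversals under a single alternative, 9, came without siR-GAL3 replicate 2, and 8 each came without siR-GAL3 replicate 3 and when the library sets formed a block, which gives siR-GAL3 replicate 2 no weight. In that block fit 106 of all genes had an adjusted p under 0.05 and 1174 an unadjusted one, with 1 and 7 for glycolysis (PFKM passed the adjusted threshold) and 2 and 11 for the TCA cycle (PC and SUCLG2). Signs then reversed for GPI (0.037), PFKL (0.25), ALDOA (0.012), LDHA (0.21), OGDH (0.11), PDHB (-0.10), SUCLG1 (-0.14) and FH (-0.059). Quantile normalization reversed PGK1 (-0.0034), IDH1 (0.0016) and MDH2 (0.00083), and values not log-transformed reversed PFKL (0.117, in expression units). The cause was not tested.

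Unadjusted calls over all genes numbered 1623 with no filter, 121 at a mean of at least 10 and 1528 with values not log-transformed, from different numbers of genes tested, and at a mean of at least 10 there were 1 for glycolysis and 2 for the TCA cycle. No median was computed for values not log-transformed, since it would mix levels. Same-numbered libraries had correlations of deviations of -0.17, -0.07 and 0.04 and not every library correlated best with its own number, so the numbers are not a pairing. With the replicate block, 6 genes had an adjusted p under 0.05, and 543 of all 8495 genes, 1 glycolytic and 3 TCA cycle members an unadjusted one.

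With each library left out in turn, adjusted calls ranged from 0 to 167 over all genes, from 0 to 1 for glycolysis and from 0 to 3 for the TCA cycle, and unadjusted calls from 344 to 1388, from 1 to 7 and from 3 to 11. The highest of each came without siR-GAL3 replicate 2. Over all genes the unadjusted count was also 1249 without siR-GAL3 replicate 1, 350 without siR-Con replicate 2 and 344 without siR-Con replicate 3. Reversals among these fits spanned, on the log2 scale, HK2 -0.068 to 0.16, GPI -0.15 to 0.043, PFKL -0.25 to 0.25, ALDOA -0.10 to 0.043, PGK1 -0.059 to 0.091, PGAM1 -0.00085 to 0.17, ENO1 -0.13 to 0.00095, LDHA -0.24 to 0.21, PDHB -0.079 to 0.14, IDH1 -0.033 to 0.024, IDH3G -0.14 to 0.0019, OGDH -0.22 to 0.13, SUCLG1 -0.12 to 0.087, SDHC -0.12 to 0.045, FH -0.061 to 0.063, MDH1 -0.10 to 0.050 and MDH2 -0.068 to 0.032. Depth is unknown, so what it limits could not be measured.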

Other observations

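HK3, the hexokinase of myeloid cells, lay below the filter and was not tested. It was 0.375, 0.361 and 0.24 in siR-Con and 0.818, 0.68 and 0.712 in siR-GAL3, higher in every siR-GAL3 library. AIF1, a microglial marker, was 1.69, 1.74 and 1.86 in siR-Con and 2.64, 3.73 and 2.98 in siR-GAL3, again without overlap. ENO3, the muscle enolase, also lay below the filter and was not tested. It was 1.01, 0.952 and 0.557 in siR-Con and 0.396, 0.541 and 0.413 in siR-GAL3, lower in every siR-GAL3 library. These genes were chosen after their values were seen, and 20.5% of all genes tested, which include neither HK3 nor ENO3, had no overlap between the groups. Of the 7 microglial markers tested, 4 overlapped.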
